A study of Mus musculus with 11 samples.

Results

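The genes described here encode the ligands and receptors first known from axon guidance: semaphorins with their plexin and neuropilin receptors, netrins with Unc5 receptors, Slits with Robos, and ephrins with Eph receptors. They were the 69 rows of the deposited count table whose symbols belong to these families, of 24421 rows in all. One of them, Plxna4os1, is a non-coding antisense RNA at the Plxna4 gene and no receptor; it was too low to test. Messenger RNA was sequenced from EpCAM-selected epithelial cells of mouse lung at stage E17.5, in 6 Control and 5 PRDM3/16KO libraries. In the knockout, floxed Prdm16 and floxed Prdm3 (symbol Mecom) were deleted with ShhCre, a Cre carried at the Sonic hedgehog gene and active in lung epithelium. The Cre came through males that were Prdm3 fl/fl, Prdm16 fl/wt and ShhCre+, and the females were fl/fl for both genes; the other group is labelled only Control, the series text speaks of wild type mice, and neither says which floxed or Cre alleles those mice carried. Litter, sex and sequencing batch are not labelled. Nothing states that each library is a separate animal, and p-values therefore reflect the library-to-library spread seen here, which may be technical.

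Some members of these families act by contact between cells and others as secreted cues. Class 3 semaphorins, netrins and Slits are secreted, most other semaphorins and the ephrin-B proteins span the membrane, and ephrin-A proteins are held by a lipid anchor. Plexins, Robos, Unc5 and Eph receptors signal to the actin skeleton and to adhesion, mostly through small GTPases, and neuropilins are co-receptors that bind class 3 semaphorins and present them to A-type plexins. Outside the nervous system the same proteins shape branching epithelia and vessels, and in mouse lung netrins and semaphorins are known from studies of airway branching.

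Library totals ran from 6065906 to 7869787 counts. Prdm16 was lower in the knockout, at 202 ± 21.9 CPM (counts scaled to library size with the trimmed mean of M values, mean ± SD) against 166 ± 12.2 CPM, and Mecom was higher, at 219 ± 9.99 against 340 ± 16.0 CPM; whole-gene counts include any transcript that lacks the deleted exons. Epcam was at 252 ± 25.3 and 261 ± 10.8 CPM. Genes used here as markers of other cell types were also detected. Summed over each marker list, mesenchymal genes were at 1362 to 2047 CPM in Control and 1435 to 2658 CPM in the knockout, endothelial genes at 98.5 to 165 and 126 to 162 CPM, and mesothelial genes at 1137 to 1617 and 1654 to 1940 CPM, the last without overlap. The mesothelial list held Wt1, Msln, Upk3b, Upk1b, Lrrn4, Aldh1a2, Krt19 and Gpm6a. Which cells these transcripts came from was not tested. Called higher were 8 of 19 tested mesenchymal, 5 of 12 endothelial and 7 of 8 mesothelial markers, with 1, 1 and 0 lower, where 21.1% of all genes tested were higher. Immune markers (3 of 7 tested) and neural and glial markers (4 of 6 tested) were also called higher, with 0 lower in either list. The summed levels did not all follow these calls. Median sums in Control and knockout were 497 and 402 CPM for immune, 215 and 209 for neural and glial, and 1743 and 1671 for mesenchymal genes. They were 138 and 146 CPM for endothelial and 1412 and 1825 CPM for mesothelial genes. Of the 12 epithelial markers 3 were higher and 4 lower. Neuroendocrine markers were at 60.3 to 95.5 CPM in Control and 710 to 863 CPM in the knockout, with 10 of 11 tested called higher and 0 lower, and proliferation markers at 210 to 844 and 303 to 414 CPM. Summed Y-linked genes ran from 0.247 to 231 CPM in Control (median 211) and from 0.796 to 212 CPM in the knockout (median 1.92), so that both groups held libraries with and without them, in unequal shares. With Y-linked level as a covariate 20 members were higher and 19 lower, X-linked Plxnb3 (3.13) and Efnb1 (-0.63) stayed called, and X-linked Plxna3 lost its call (edgeR adjusted p = 0.180). In bulk RNA, fewer cells of a type and less RNA per cell cannot be told apart. Beyond fits with 3 of these lists as covariates, given at the end, the part of other cell types in the results was not tested.

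Of the 69 members, 59 passed the filter on low counts, and 39 of those were called at an adjusted p under 0.05 by edgeR's quasi-likelihood test: 21 higher and 18 lower in the knockout. That is 66.1% of the tested members, where 42.9% of all 13916 genes tested were called, 21.1% higher and 21.8% lower. A change of at least 2-fold was called for 19 members, 10 higher and 9 lower, or 32.2% of those tested, against 11.4% of all genes (6.92% higher and 4.50% lower). The CPM ranges of the groups did not overlap for 29 members, 49.2% against 28.5% of all genes. The median log2 fold change (knockout over Control) was 0.13 over the members and 0.0023 over all genes, and the median absolute value 0.59 against 0.24. Among 32 tested ligands 9 were higher and 12 lower, and among 27 tested receptors 12 were higher and 6 lower. Library-size scaling without the trimmed mean moved the median of all genes to 0.11 on the log2 scale. Across all genes it moved the split of the calls from 49.2% higher to 65.6% higher, and the members then counted 24 higher and 17 lower. The trimmed-mean factors were 0.930 to 0.944 in Control replicates 1 to 4, and 1.02 and 1.03 in Control replicates 5 and 6. In the knockout they were 1.03 to 1.06. Without Control replicates 5 and 6, 23 members were higher and 19 lower, and 6528 genes were called.

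**Figure D1:**
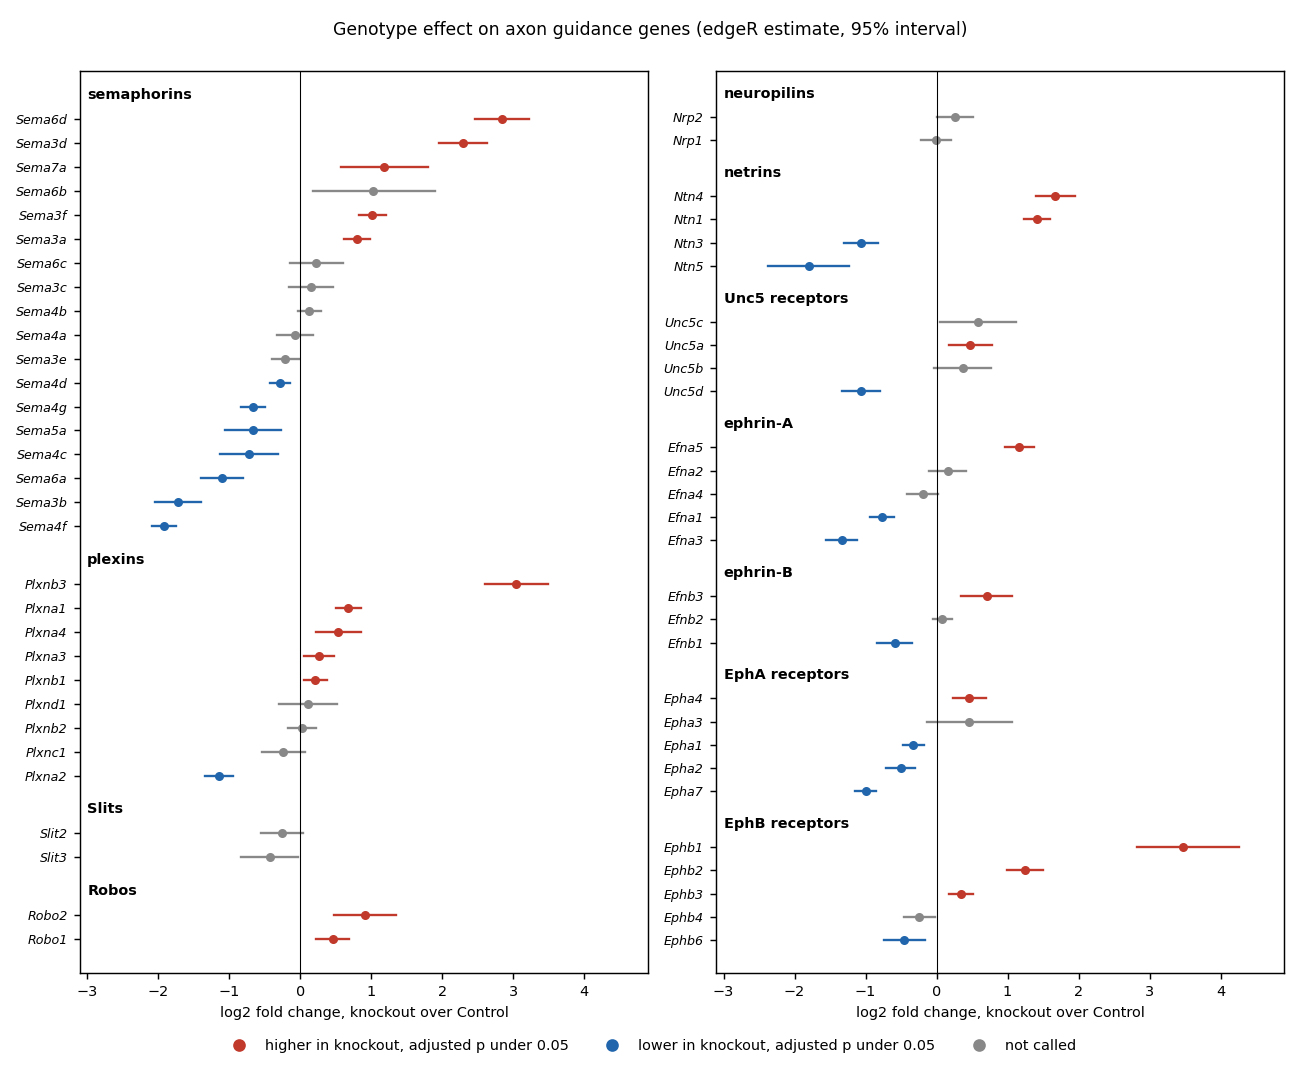
Log2 fold change, knockout over Control, of the 59 tested members by family, with 95% intervals from edgeR; red and blue mark calls at an adjusted p under 0.05 and grey marks no call. Semaphorins, netrins, ephrins and Eph receptors each have members on both sides of 0, and the estimates run from -1.92 (Sema4f) to 3.47 (Ephb1).

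Semaphorins held the largest fall of all members (Sema4f) and large rises. Of 18 tested, 5 rose and 7 fell; Sema3g and Sema5b were too low to test. Sema4f, a membrane semaphorin of class 4, was at 159 to 200.3 CPM in Control (median 177) and, in the order of knockout replicates 1 to 5, at 41.2, 48.2, 49.7, 51.3 and 44.7 CPM. Every knockout library lay far below every Control library. Its log2 fold change was -1.92 (SE 0.078, edgeR adjusted p = 9.34e-11). Per kilobase of annotated exons Sema4f was the most abundant semaphorin in Control, at 33.7 CPM per kilobase, and the seventh in the knockout, at 8.89; the second in both groups was Sema3e, at 24.6 and 21.3 CPM per kilobase.

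The stretches just upstream of 5 transcription starts are given for chosen members. These are the largest fall (Sema4f), the largest rises among semaphorins and plexins (Sema6d and Plxnb3), and the neighbouring Efna3 and Efna4 genes. Of the last pair, Efna3 fell and Efna4 was not called. Ephb1, with the largest rise of all members (3.47), is not among them. The stretches come from RefSeq on build GRCm38.p6, are written 5′ to 3′, and stop before the first annotated transcribed base. The Sema6d stretch lies before the outermost of its annotated starts. Capitals mark CAAGTG, the core bound by NKX2-1. In the Efna4 stretch they mark AGATAA, the core bound by the MECOM zinc fingers, and both motifs were searched on both strands.
Sema4f, chr6:82939770-82940019, minus strand: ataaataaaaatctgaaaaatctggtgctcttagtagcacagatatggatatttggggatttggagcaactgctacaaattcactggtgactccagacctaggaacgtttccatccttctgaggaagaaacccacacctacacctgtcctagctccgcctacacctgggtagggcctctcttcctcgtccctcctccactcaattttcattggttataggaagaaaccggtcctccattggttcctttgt
Sema6d, chr2:124089719-124089968, plus strand: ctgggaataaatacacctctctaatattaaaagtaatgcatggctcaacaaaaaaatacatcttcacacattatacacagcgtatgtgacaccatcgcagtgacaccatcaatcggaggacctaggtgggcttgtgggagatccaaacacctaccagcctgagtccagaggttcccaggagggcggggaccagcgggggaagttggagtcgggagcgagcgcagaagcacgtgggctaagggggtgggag
Plxnb3, chrX:73756853-73757089, plus strand: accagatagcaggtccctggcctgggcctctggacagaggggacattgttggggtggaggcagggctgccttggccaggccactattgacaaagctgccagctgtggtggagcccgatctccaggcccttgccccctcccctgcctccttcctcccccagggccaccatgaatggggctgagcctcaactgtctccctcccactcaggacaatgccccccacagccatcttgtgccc
Efna3, chr3:89322966-89323189, minus strand: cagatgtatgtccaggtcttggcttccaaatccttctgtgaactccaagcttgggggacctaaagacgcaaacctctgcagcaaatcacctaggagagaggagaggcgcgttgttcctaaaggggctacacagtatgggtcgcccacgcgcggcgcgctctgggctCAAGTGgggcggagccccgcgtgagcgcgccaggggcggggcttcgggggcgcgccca
Efna4, chr3:89338029-89338278, minus strand: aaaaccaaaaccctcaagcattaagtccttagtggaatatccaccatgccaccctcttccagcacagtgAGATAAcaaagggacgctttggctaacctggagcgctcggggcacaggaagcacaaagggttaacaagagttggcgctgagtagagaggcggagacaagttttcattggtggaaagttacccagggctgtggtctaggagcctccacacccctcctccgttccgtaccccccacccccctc
Only the Efna3 stretch holds a CAAGTG and only the Efna4 stretch an AGATAA among these 5. Over the 250 bases before each RefSeq start, CAAGTG stood in 4 of 75 windows of 59 matched members (5.33%) and in 11.6% of all 32851 windows, and AGATAA in 3 of 75 (4.00%) and 9.99%. Among windows of members called lower 2 of 21 held CAAGTG (9.52%), among those called higher 0 of 19, and among those not called 1 of 27. AGATAA stood in 0 of 21 windows of members called lower, 1 of 19 called higher and 2 of 27 not called. The member windows also had a higher GC content, a median of 64.4% against 52.4% of all windows.

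Secreted class 3 semaphorins moved in both directions. Sema3b was at 57.1 to 103 CPM in Control (median 82.2) and at 22.9, 29.2, 26.1, 21.9 and 20.6 CPM in the knockout. All knockout libraries lay below all Control libraries, and Control replicates 5 and 6 were the lowest Controls. The log2 fold change was -1.72 (SE 0.15, edgeR adjusted p = 5.67e-07). Its neighbour Sema3f, named after its value was seen, lies 72.3 kb away on the same strand of chromosome 9 (Sema3b at 107597674 to 107609229, Sema3f at 107681500 to 107710475, mm10) and went the other way. Sema3f was at 29.1 to 34.2 CPM in Control and at 54.3 to 74.5 CPM in the knockout, so that its log2 fold change was positive, at 1.01 (SE 0.088, edgeR adjusted p = 2.47e-07).

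Sema3d was scarce in Control, at 2.84 to 5.53 CPM (median 3.47), and reached 17.6, 19.2, 20.6, 14.8 and 19.6 CPM in the knockout. The groups did not overlap, and the log2 fold change was 2.29 (SE 0.16, edgeR adjusted p = 2.48e-08). Sema3a, a ligand of neuropilin-1, was abundant in both groups and rose from 214 ± 26.5 to 373 ± 27.7 CPM (0.80, SE 0.086, edgeR adjusted p = 2.05e-06). It was the fifth semaphorin per kilobase in Control, at 15.4 CPM per kilobase, and the first in the knockout, at 26.9. In the knockout the Sema3a libraries (24.0 to 28.4 CPM per kilobase) met those of Sema3e (17.99 to 24.0 CPM per kilobase) only at their limits. Sema3e, a direct ligand of Plxnd1, was not called, at 204 to 256 CPM in Control and 220.1, 223, 196, 167 and 181 CPM in the knockout (log2 fold change -0.21, 95% interval -0.39 to -0.02, edgeR adjusted p = 0.0693; called without Control replicate 4 or knockout replicate 1, lowest adjusted p 0.0361). Sema3c was not called either, at 47.8 to 84.3 CPM in Control and 81.3, 86.8, 76.2, 58.0 and 80.7 CPM in the knockout (0.15, interval -0.15 to 0.46).

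Of the 6 class 4 semaphorins, which span the membrane and bind mainly B-type plexins, 4 fell and none rose. Beside Sema4f these were Sema4c (log2 fold change -0.71), Sema4g (-0.66) and Sema4d (-0.29). Sema4c varied most, at 47.0 to 110.0 CPM in Control, with Control replicate 6 the highest, and 35.4 to 49.0 CPM in the knockout, so that the groups overlapped. Of its exon bases 7.27% overlap a non-coding gene on the opposite strand. Sema4a (-0.07) and Sema4b (0.13) were not called by edgeR. With library-size scaling alone Sema4b was called, at 0.23 (edgeR adjusted p = 0.0350).

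Class 6 semaphorins, ligands of A-type plexins, contained the largest rise of the family. Sema6d was at 2.35 to 6.92 CPM in Control (median 4.11) and at 33.7, 25.6, 31.1, 32.8 and 30.6 CPM in the knockout. The lowest knockout library stood well above the highest Control library. Its log2 fold change was 2.84 (SE 0.18, edgeR adjusted p = 6.93e-09). Sema6a fell from 22.8 ± 3.85 to 10.6 ± 1.63 CPM (-1.10, SE 0.14), Sema6c was not called (0.23), and Sema6b missed the threshold at under 2 CPM in either group's mean (1.03, edgeR adjusted p = 0.0501). Sema6c was called without Control replicate 6 (edgeR adjusted p = 0.0399). Sema6b was called without Control replicate 3 or knockout replicate 4 (lowest adjusted p 0.0339), with DESeq2 size factors, with library-size scaling, without the filter and by limma-voom. Outside these classes, Sema5a fell (-0.67, edgeR adjusted p = 0.00966, with overlapping groups) and the lipid-anchored Sema7a, at 47 counts over the Control and 104 over the knockout libraries, rose (1.18). Sema7a passed the filter on low counts only through the knockout.

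**Figure D2:**
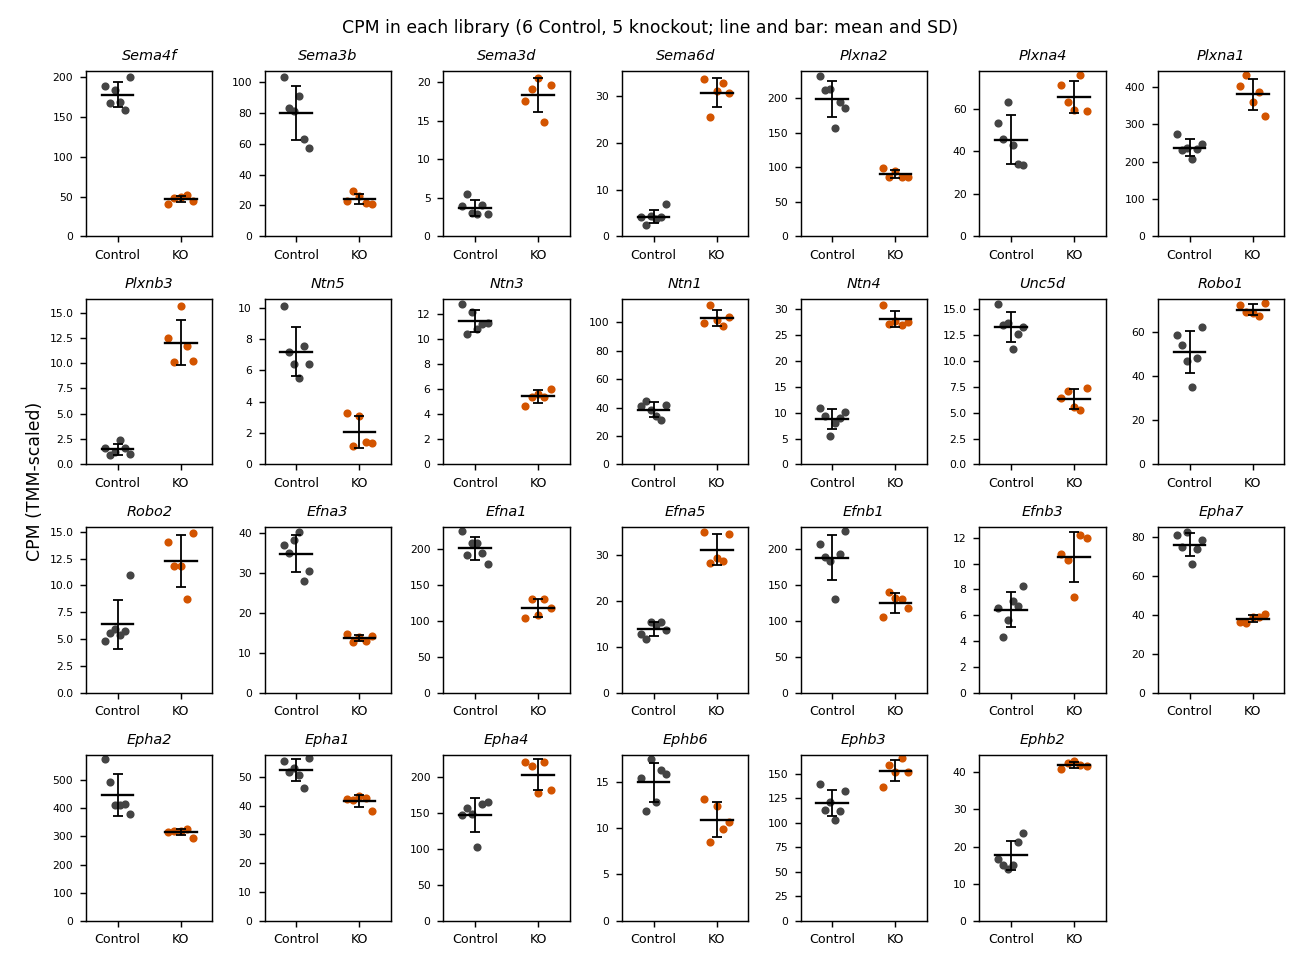
CPM of each library for 27 called members, at most 4 per family, whose higher group averaged 5 CPM or more; dots are libraries (6 Control, 5 knockout), lines and bars are mean and SD, and each panel's axis starts at 0. Sema4f, Sema6d, Plxnb3, Ntn1 and Ephb2 separate fully, while Plxna4, Robo2, Efnb1, Efnb3, Ephb6 and Ephb3 overlap.

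Plexins, the semaphorin receptors, rose in 5 of 9 cases and fell in 1. Plxna1 was at 206 to 275 CPM in Control (median 235) and at 403, 433, 361, 387 and 323 CPM in the knockout, without overlap (log2 fold change 0.68, SE 0.084, edgeR adjusted p = 9.84e-06). An antisense gene overlaps 10.7% of its exon bases. Plxna2 fell, from 157 to 233 CPM (median 203) to 99.2, 85.4, 94.1, 86.6 and 86.1 CPM. Its log2 fold change was -1.14 (SE 0.091, edgeR adjusted p = 8.88e-08), so these A-type plexins, which can both serve class 3 and class 6 semaphorins, changed in opposite directions. Plxna4 was at 33.3 to 63.0 CPM in Control and at 70.9, 63.1, 59.4, 75.8 and 58.7 CPM in the knockout; Control replicate 3 was inside the knockout range (0.54, SE 0.15, edgeR adjusted p = 0.00952).

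Among B-type plexins the rarest changed most. Plxnb3 was at 0.968 to 2.43 CPM in Control (median 1.44) and at 12.5, 10.1, 15.6, 11.7 and 10.2 CPM in the knockout. The summed counts were 58 over 6 Control and 467 over 5 knockout libraries, and the log2 fold change was 3.04 (SE 0.21, edgeR adjusted p = 1.94e-08). Plxnb3 passed the filter on low counts only through the knockout. Per kilobase Plxnb3 remained far below Plxnb2 and Plxnb1, at 1.85 against 59.0 and 55.6 CPM per kilobase in the knockout. Plxnb2 was the most abundant plexin in both groups and was not called, at 371 to 573 CPM in Control and 429, 488, 449, 476 and 435 CPM in the knockout (0.02, interval -0.18 to 0.23). The calls of Plxnb1 (0.21, edgeR adjusted p = 0.0358) and Plxna3 (0.26, edgeR adjusted p = 0.045) were small. They were lost when single libraries were left out: Plxnb1 without Control replicate 2, 3, 4 or 5 or knockout replicate 1 or 4 (highest adjusted p 0.0930), and Plxna3 without any library other than Control replicate 6 and knockout replicate 4 (highest adjusted p 0.102). Plxnd1, at 11.6 to 27.9 CPM in Control and 19.6, 27.1, 25.6, 21.1 and 16.2 CPM in the knockout, had an interval of -0.29 to 0.51, and Plxnc1, the Sema7a receptor, was not called (-0.24).

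Neither neuropilin passed the test. Nrp1 was at 288 to 426 CPM in Control (median 393) and at 376, 358, 375, 407 and 341 CPM in the knockout. The log2 fold change was -0.0042 with a 95% interval of -0.21 to 0.20, and Control replicates 5 and 6 were the lowest of the 11 libraries. Nrp2 was at 199 to 313 CPM in Control and 292, 355, 287, 325 and 261 CPM in the knockout (0.26, interval 0.01 to 0.52, edgeR adjusted p = 0.0862); it was called without Control replicate 1 or 2 (lowest adjusted p 0.0297) and with library-size scaling.

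All 4 netrins changed, 2 in each direction and each without overlap of the groups. Ntn1, a secreted ligand of Dcc, Neo1 and Unc5 receptors, was at 31.4 to 44.5 CPM in Control (median 40.0) and at 99.3, 112, 101, 97.4 and 103 CPM in the knockout. The log2 fold change was 1.41 (SE 0.085, edgeR adjusted p = 4.57e-09). Ntn4, a netrin of basement membranes, was at 5.44 to 10.8 CPM in Control (median 9.18) and at 30.8, 27.2, 27.7, 27.0 and 27.6 CPM in the knockout (1.67, SE 0.13, edgeR adjusted p = 6.62e-08). Ntn1 was the most abundant netrin per kilobase in both groups, at 6.15 and 16.4 CPM per kilobase, and Ntn4 went from the third place to the second.

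The falling netrins were the rarer Ntn3 and Ntn5. Ntn3 was at 10.4 to 12.8 CPM in Control (median 11.2) and at 4.64, 5.39, 5.63, 5.40 and 6.04 CPM in the knockout (-1.07, SE 0.11, edgeR adjusted p = 1.82e-06). Ntn5 was at 5.55 to 10.1 CPM in Control (median 6.81) and at 3.32, 1.18, 3.07, 1.42 and 1.36 CPM in the knockout (-1.79, SE 0.27, edgeR adjusted p = 5.48e-05). It passed the filter on low counts only through Control. Of the annotated exon bases of Ntn5, 23.4% overlap Sec1 on the opposite strand; Sec1 was at 12.4 and 4.55 CPM, and without a stated strand setting the reads of the pair cannot be told apart. Ntn3 shares 1.74% of its exon bases with Tbc1d24 on its own strand.

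Unc5 receptors, which mediate repulsion by netrins, had 1 higher and 1 lower member of 4. Unc5d was at 11.1 to 15.4 CPM in Control (median 13.3) and at 6.37, 7.09, 5.51, 5.27 and 7.40 CPM in the knockout, without overlap (-1.06, SE 0.12, edgeR adjusted p = 5.82e-06). Unc5a rose from 3.54 ± 0.404 to 4.92 ± 0.466 CPM (0.47, edgeR adjusted p = 0.0147), a call lost without Control libraries 5 and 6 (edgeR, adjusted p = 0.0507). The Unc5a call was also lost with replicate number as a block, at a threshold of 0.01, and with the mesenchymal, endothelial or mesothelial covariate. Unc5b was at 13.2 to 34.9 CPM in Control and 26.8, 34.7, 34.1, 29.5 and 23.8 CPM in the knockout (0.37, interval -0.03 to 0.77), and Unc5c at 5.12 to 17.0 CPM and 17.505, 12.2, 18.7, 14.0 and 15.2 CPM (0.59, interval 0.06 to 1.12, edgeR adjusted p = 0.0712). Control replicate 6 was the highest Control library for both, and without it both were called (edgeR, adjusted p = 0.00759 for Unc5b and 0.00562 for Unc5c). With all libraries Unc5c was called higher by DESeq2 and by limma-voom.

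Slits were not called and their Robo receptors rose. Slit2 was at 65.9 to 126 CPM in Control (median 104) and at 83.1, 72.0, 98.5, 75.8 and 81.4 CPM in the knockout (-0.26, interval -0.56 to 0.04, edgeR adjusted p = 0.152; called without Control replicate 4, adjusted p = 0.0165). Slit3 was at 6.47 to 13.8 CPM and 7.16, 5.52, 7.04, 6.69 and 5.30 CPM (-0.43, interval -0.83 to -0.03, edgeR adjusted p = 0.0758; called without Control replicate 5, adjusted p = 0.0459). Slit1 was too low to test. Robo1 was at 35.2 to 62.1 CPM in Control (median 51.0) and at 72.0, 69.1, 68.5, 67.2 and 73.0 CPM in the knockout, without overlap (0.46, SE 0.11, edgeR adjusted p = 0.00354). Robo2 was at 4.79 to 10.99 CPM in Control (median 5.66), with Control replicate 6 the highest, and at 14.1, 11.8, 11.8, 8.75 and 14.9 CPM in the knockout (0.92, SE 0.20, edgeR adjusted p = 0.00199). Robo3 and the endothelial Robo4 did not pass the filter, at 12 and 36 counts over the Control libraries and 8 and 47 over the knockout libraries. With mesenchymal markers as a covariate the Robo1 (0.34, edgeR adjusted p = 0.0923) and Robo2 (0.55; adjusted p = 0.0873) calls were lost, and Slit2 was called lower (-0.57; adjusted p = 0.00579).

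Ephrin-A ligands, the lipid-anchored partners of EphA receptors, changed unevenly within a gene cluster. Efna1 was the most abundant ligand here per kilobase, at 109.9 CPM per kilobase in Control and 64.6 in the knockout. It was at 179 to 225 CPM in Control (median 202) and at 104, 130.5, 108, 129.9 and 118 CPM in the knockout, without overlap (-0.77, SE 0.077, edgeR adjusted p = 1.17e-06). Efna3 fell further, from 28.0 to 40.0 CPM (median 35.9) to 14.7, 12.7, 14.0, 13.0 and 14.1 CPM (-1.34, SE 0.10, edgeR adjusted p = 5.79e-08). Efna4 lies 10.4 kb from Efna3, which lies 32.8 kb from Efna1, all on the minus strand of chromosome 3 between 89271733 and 89338028 (mm10). Antisense genes overlap 14.1% of the exon bases of Efna3 and 10.5% of those of Efna4. Efna4 was not called, at 22.5 to 30.9 CPM in Control and 20.7, 24.7, 22.4, 29.5 and 25.4 CPM in the knockout (-0.20, interval -0.42 to 0.02; called without Control replicate 2 or knockout replicate 4, lowest adjusted p 0.0476).

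Efna5, on chromosome 17, rose. It was at 11.6 to 15.4 CPM in Control (median 14.2) and at 35.0, 28.4, 29.5, 28.7 and 34.7 CPM in the knockout (1.17, SE 0.098, edgeR adjusted p = 1.60e-07). Every knockout library stood above every Control library. Efna2 was not called, at 8.71 to 14.0 CPM and 12.7, 12.0, 11.4, 10.5 and 11.6 CPM (0.16, interval -0.11 to 0.42). Of the membrane-spanning ephrin-B ligands, Efnb1 fell, from 131 to 225 CPM (median 191) to 105, 141, 132, 131 and 117 CPM (-0.59, SE 0.12, edgeR adjusted p = 8.86e-04), with Control replicate 4 inside the knockout range. Efnb3 rose, from 4.29 to 8.27 CPM (median 6.66) to 10.7, 10.2, 7.43, 12.2 and 12.0 CPM (0.71, SE 0.17, edgeR adjusted p = 0.00326). Efnb2 was not called, at 224 to 272 CPM and 262, 258, 258, 261 and 275 CPM (0.08, interval -0.06 to 0.21). Efnb1 was the first and Efnb2 the second ephrin-B per kilobase in Control (54.5 and 36.3 CPM per kilobase), and the order was the other way round in the knockout (36.2 and 38.3 CPM per kilobase).

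**Figure D3:**
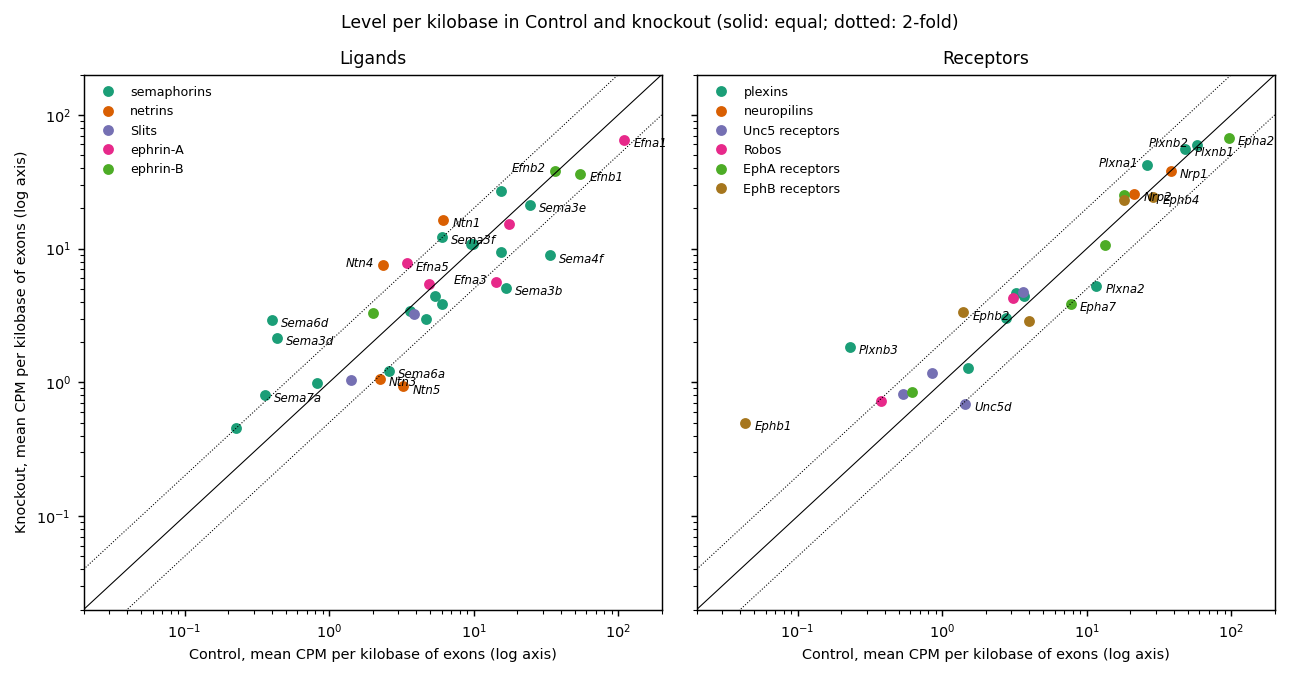
Mean CPM per kilobase of annotated exons in Control (horizontal) and knockout (vertical), both on log axes, for tested ligands (left) and receptors (right), coloured by family; the solid line marks equal levels and the dotted lines a 2-fold difference. Sema4f leaves the top of the semaphorins (33.7 to 8.89), whereas the abundant receptors Plxnb2, Nrp1 and Ephb4 lie near the line of equality.

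EphA receptors fell in 3 of 5 tested cases and rose in 1; Epha5, Epha6, Epha8 and Epha10 were too low to test. Epha2 was the most abundant receptor of all these families per kilobase, at 95.8 CPM per kilobase in Control and 67.6 in the knockout. It was at 379 to 576 CPM in Control (median 414) and at 318, 319.7, 321, 326 and 295 CPM in the knockout (-0.50, SE 0.097, edgeR adjusted p = 6.34e-04). All knockout libraries were below the lowest Control. Epha7 was at 66.0 to 83.0 CPM in Control (median 76.7) and at 36.5, 35.7, 39.1, 39.0 and 40.3 CPM in the knockout (-1.0001, SE 0.070, edgeR adjusted p = 2.26e-08). Epha1 fell less, from 46.1 to 56.7 CPM (median 52.4) to 42.2, 42.0, 43.3, 42.8 and 38.0 CPM (-0.33, SE 0.068, edgeR adjusted p = 0.00113). Of its exon bases 6.01% overlap Zyx on the opposite strand. Epha4, which binds ephrins of both classes, rose from 102 to 165 CPM (median 153) to 220.0, 214, 178, 219 and 181 CPM, without overlap (0.46, SE 0.11, edgeR adjusted p = 0.00315). Epha3 was not called, at 3.18 to 6.79 CPM and 5.83, 6.44, 13.1, 3.99 and 7.53 CPM (0.46, interval -0.13 to 1.06).

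EphB receptors, the partners of ephrin-B ligands, rose in 3 of 5 cases and fell in 1. Ephb2 was at 14.1 to 23.6 CPM in Control (median 15.9) and at 41.0, 42.4, 43.2, 41.9 and 41.6 CPM in the knockout. The knockout libraries lay close together and above all Control libraries, and the log2 fold change was 1.24 (SE 0.12, edgeR adjusted p = 6.15e-07). Ephb1 had 1 to 3 counts in each Control library and 18 to 33 in each knockout library, and passed the filter on low counts only through the knockout. Its fitted log2 fold change was 3.47 (SE 0.33, edgeR adjusted p = 5.70e-07), and it lost the call with the mesothelial covariate (edgeR adjusted p = 0.134). The lowest log2 fold change of Ephb1 over all alternatives was 2.01. It stayed the scarcest EphB receptor, at 0.498 CPM per kilobase in the knockout. Ephb3 rose from 103 to 139 CPM (median 117) to 137, 159, 152, 166 and 152 CPM (0.35, SE 0.079, edgeR adjusted p = 0.0022). Ephb6, which lacks kinase activity, fell from 11.9 to 17.4 CPM (median 15.6) to 13.1, 8.54, 12.4, 9.91 and 10.6 CPM (-0.45, SE 0.13, edgeR adjusted p = 0.0129), a call lost with library-size scaling alone (-0.35; adjusted p = 0.0588). Ephb4 was the most abundant EphB receptor per kilobase in both groups and was not called, at 114 to 177 CPM and 102, 119, 107, 123 and 116 CPM (-0.24, interval -0.46 to -0.03, edgeR adjusted p = 0.0655; called without Control replicate 2 or 4, lowest adjusted p 0.0329).

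Other genes of these pathways were read from lists by role. Over 64 tested genes 22 were higher and 15 lower by edgeR, beside 42.9% of all genes called (21.1% higher and 21.8% lower), with a median log2 fold change of -0.02. Among co-receptors 5 of 11 rose and 3 fell. The netrin and RGM receptor gene Neo1 rose (157 ± 19.0 to 207 ± 12.2 CPM; 0.41), Erbb2 rose (0.33), and the plexin-B partner Met (189 ± 29.9 to 91.9 ± 4.89 CPM; -1.04) and the VEGF receptor Kdr (-1.23) fell; the netrin receptor gene Dcc was too low to test. Among other ligands 4 of 6 rose and 1 fell. Flrt2, whose product binds Unc5 receptors, went from 20.6 ± 3.45 to 168 ± 24.2 CPM (3.01, edgeR adjusted p = 9.34e-11) and the related Flrt3 from 484 ± 83.6 to 899.7 ± 52.5 CPM (0.89). Vegfa, a neuropilin ligand, rose (0.35), and Rgmb, a ligand of neogenin, fell (-0.77).

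Of 40 tested signal transducers 11 were higher and 8 lower, a share near that of all genes. Tiam1, a Rac activator (40.5 ± 6.24 to 104 ± 6.32 CPM; 1.36), Mical1, an actin-oxidising enzyme that acts under plexins (1.26), and Srgap2, a GTPase regulator of Robo signalling (68.9 ± 6.41 to 147 ± 9.89 CPM; 1.098), rose. Ngef, the ephexin that acts under EphA receptors, fell from 42.2 ± 5.14 to 11.6 ± 1.199 CPM (-1.86, edgeR adjusted p = 1.82e-09). Of 7 proteases that can process these proteins 2 rose and 3 fell, among them Pcsk5 (1.22) and Furin (0.18) higher and Pcsk6 (-1.81) and Adam17 (-0.33) lower.

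The members' calls were also fitted with the marker lists as covariates. With the mesenchymal list as covariate 16 members were higher and 19 lower; the calls of Plxna3, Plxnb1, Robo1, Robo2, Sema5a and Unc5a were lost, and Slit2 and Plxnc1 were called lower. In the same fit calls over all genes went from 5973 to 3854. With the endothelial list, a covariate chosen after seeing the data, 13 members were higher and 17 lower, and calls over all genes were 3974. With the mesothelial list, also chosen after seeing the data and separated between the groups in its summed level, 12 were higher and 12 lower, and calls over all genes were 2899. Plxna4 (-0.28) and Sema4c (0.41) changed sign in that fit, neither being called. Because the summed mesothelial level separated the groups, that fit cannot well tell the covariate from genotype. No conclusion is drawn from calls lost or signs changed in it. Among the 39 called members 19 were called under all 24 alternatives, and 13 of the other 20 lost the call only with the endothelial or mesothelial covariate. Of these 13, Efnb1, Epha1, Ephb1, Ephb3, Plxna1, Plxna4, Sema3a, Sema4c, Sema4d, Sema4g, Sema6a and Sema7a lost it with the mesothelial covariate. Epha4, Ephb3, Plxna4, Sema4c and Sema7a lost it with the endothelial one.

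**Figure D4:**
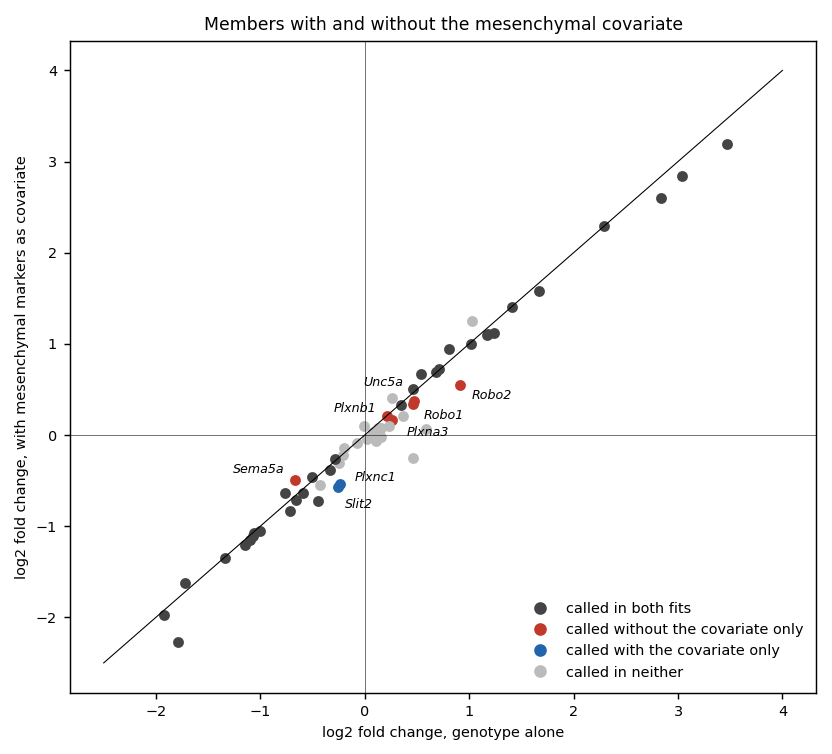
Log2 fold change of the 59 tested members in the fit with genotype alone (horizontal) and with mean mesenchymal marker level as a covariate (vertical); the line marks equal values and colours mark the fits in which a gene was called. Red marks 6 members called only without the covariate, such as Robo1 and Robo2, blue marks Slit2 and Plxnc1, and the large changes of Sema4f, Sema6d and Plxnb3 keep their direction.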

How the data were processed

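The authors deposited whole-number counts per gene symbol, not normalized, with 1 column per library. The submitters' processing notes list, without roles, the build mm10 and HTSeq 2.0, Bowtie2 2.4.2, Picard 2.18.22, Trim Galore 0.4.2, SAMtools 1.10.0, DESeq2 and FastQC. The sources used here give no annotation, strand setting or handling of duplicates. Coordinates, exon lengths (union of exons) and overlaps come from GENCODE release M21 on the same build, in which all 69 members were found by symbol. From the counts, genes were filtered with filterByExpr, which left 13916, scaled by the trimmed mean of M values and tested with edgeR 4.0.16 in R 4.3.3 (quasi-likelihood F-test, robust, two-sided, Benjamini-Hochberg over all genes tested, threshold 0.05). Standard errors were taken from the fold change and its F statistic. Depth of 6065906 to 7869787 counts per library limits members with few counts, which were filtered out or carry wide intervals.

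Members, gene lists and tests were chosen with earlier results of these data known. Values in each library are given, per family, for up to 4 called members with at least 5 CPM in the higher group, by absolute log2 fold change, and up to 2 most abundant members not called; for other pathway genes, up to 4 called per role by the same measure. Members outside this rule are given by mean, range or fold change, and Sema3a, Sema3f, Sema4c, Sema6a, Sema7a, Ephb1, Unc5a, Plxnb1 and Plxna3 were described further after their values were seen. The fit was first tested on simulated data. Some marker genes are not reported here. Alternatives were DESeq2 1.42.0 and its size factors, limma-voom (3.58.1), library size only, other filters, the replicate number as a block, Y-linked or marker covariates, a threshold of 0.01 and leaving out libraries.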

Additional observations from a re-analysis of the deposited data

Results flagged for a closer look

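Among 84 sets of libraries (42 members, 2 groups), 9 had a highest or lowest library far from the rest of its group; chance alone marks about 1 in 20 such sets. Control replicate 6 stood highest for Robo2 (10.99 CPM, the next at 5.92), Efna2 (14.0 CPM, the next at 10.5) and Ephb4 (177 CPM, the next at 136). Control replicate 3 stood highest for Slit3 (13.8 CPM, the next at 8.70), and Control replicate 4 stood lowest for Epha4 (102 CPM, the next at 146). In the knockout, replicate 5 stood highest for Efnb2 (275 CPM, the next at 262) and lowest for Epha2 (295 CPM, the next at 318) and Epha1 (38.0 CPM, the next at 42.0), and replicate 1 highest for Ntn4 (30.8 CPM, the next at 27.7).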

How the results depend on the processing

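Every called member kept its direction in every alternative other than the mesothelial covariate. Against 21 higher and 18 lower members, leaving out single libraries gave 19 to 24 higher and 18 to 21 lower, other pathway genes 19 to 23 higher and 14 to 16 lower (22 and 15 with all libraries), and all genes 5375 to 6389 calls. Of the alternatives chosen at the outset, 1 moved counts by over 1.5 times, the mesenchymal covariate: all genes, at 3854 calls, and lower pathway genes, at 9. Covariates chosen after seeing the data moved more: with the endothelial covariate 13 members were higher and 3974 genes called, and with the mesothelial covariate 12 members were higher, 9 and 8 pathway genes higher and lower, and 2899 genes called. Plxna4 reversed with the mesothelial covariate (-0.28, edgeR adjusted p = 0.608, over all alternatives 7.70e-04 to 0.608), as did Sema4c (0.41, edgeR adjusted p = 0.510). The cause was not tested. With the replicate number as a block, 23 members were higher and 20 lower; the numbers did not pair the libraries, since same-numbered libraries' deviations from their group means correlated at -0.06, 0.09, -0.05, 0.01 and 0.27, and 1 of 5 knockout libraries correlated best with its own number. The 10 members not tested fell below the filter on low counts. Without that filter all 69 members were fitted, and 24 were called higher and 19 lower, some of the 10 among them.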
